A study of Drosophila melanogaster with 13 samples.

Results

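The open regions of chromosome 4 were followed across the eye-antennal disc samples of an open chromatin study in Drosophila melanogaster. Their members were all merged peaks that the deposited count table placed on chr4 of the dm3 genome build, which gave 374 regions of 36506 in all. They ran from chr4:63072 to chr4:1284582, and 29691 merged peaks on the other autosomal arms (2L, 2R, 3L and 3R) served for comparison. The choice used position alone and no measured value.

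Chromosome 4, the dot chromosome, is the smallest chromosome of the fly. Along its gene-bearing arm, active genes lie among repeats and chromatin that carries Heterochromatin Protein 1, and the chromosome-specific protein POF binds many of its genes. It holds several developmental regulators used in the eye-antennal disc, among them the Pax6 genes eyeless (ey) and twin of eyeless (toy), the Hedgehog pathway effector cubitus interruptus (ci) and the zinc finger homeodomain gene zfh2.

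Open chromatin was measured in 11 libraries of dissected eye-antennal discs from wandering larvae of the last instar. The ATAC-seq set, in which a transposase cuts accessible DNA, held 7 libraries of 10 discs each, and the FAIRE-seq set, in which nucleosome-poor DNA is recovered by phenol extraction, held 4 libraries of 200 discs each. Tumors were RasV12; scrib-/- clones from y,w,eyFlp flies with act>y+>Gal4, UAS-GFP and FRT82,Tub-Gal80 crossed to y,w flies with UAS-RasV12 and FRT82,scrib2. There was 1 early and 1 late tumor library for each technique. Late tumors were collected days later, from larvae that had stayed larvae, and the labels give them the same stage as the early ones. The clones were induced by Flp under an ey regulatory sequence, itself taken from a chromosome 4 gene, and discs with clones can also hold normal cells, which the study describes for the early stage. Upd discs expressed the JAK/STAT ligand Unpaired as UAS-UPD:GFP under GMR-gal4, which is active in the differentiating part of the eye, and were measured by ATAC-seq in 2 libraries. Wild types were FRT82 (w;;FRT82), DGRP-208 and Optix-GFP for ATAC-seq and FRT82 and CantonS for FAIRE-seq. Each was 1 library of 1 strain, so strain and library cannot be told apart, and p-values measure the spread between such libraries. A CTCF ChIP-seq peak list from CantonS discs was also used.

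The libraries held between 2375435 (wild type FRT82, FAIRE-seq) and 10871706 (late tumor, ATAC-seq) reads in merged peaks, of which 24388 to 86582 fell in chromosome 4 peaks. The median chromosome 4 peak had 26.5 to 101 reads, and between 299 and 374 of the 374 peaks reached 10 reads in a given library. No pair of libraries of 1 group agreed within sampling noise on chromosome 4 (chi-square per degree of freedom 1.82 to 9.11). The Optix-GFP library stood apart from the other wild types on this chromosome. Chromosome copies were not measured, so more copies of chromosome 4 and more open chromatin on it cannot be told apart.

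Chromosome 4 had about as many open regions per Mb as the other autosomal arms, but its regions were shorter and, by ATAC-seq, lower. It had 306 merged peaks per Mb between its first and last peak, against 298 to 319 per Mb on 2L, 2R, 3L and 3R, and the peaks covered 9.52% of that stretch, against 10.1% to 11.4%. Their median length was 231 bp, against 266 to 274 bp on the other arms. The median peak had 9.49 CPM (a peak's reads per 1000000 reads in merged peaks, scaled by TMM, edgeR's trimmed mean of M values, and averaged over the 11 samples), against 12.7 to 13.8 CPM on the other arms. By library the median was 5.70 to 9.33 CPM in ATAC-seq, against 11.1 to 11.8 CPM on the other autosomal arms together, and 11.8 to 14.2 CPM in FAIRE-seq, against 12.5 to 13.8 CPM. Members that FAIRE-seq called and ATAC-seq never did made up 26.2% of chromosome 4 and 11.1% of the other autosomal arms. These members entered through FAIRE-seq alone and count in the ATAC-seq medians, and medians without them were not computed. Peaks of at least 1000 bp numbered 8 on chromosome 4 (2.14%), a share within the 1.99% to 3.06% of the other arms.

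The deposited peak calls of the single samples were compared with the merged peaks. Of the chromosome 4 members, the early and late ATAC-seq tumors called 40.6% and 45.2%, the Upd discs 44.4% and 50.5%, and the ATAC-seq wild types 49.7% to 55.9%. With FAIRE-seq the early and late tumors called 49.2% and 51.9%, wild type FRT82 37.4% and CantonS 56.4%. The same calls covered 50.4% to 62.0% of the members on the other autosomal arms in ATAC-seq and 41.1% to 49.97% in FAIRE-seq. Members called in all 11 samples made up 25.4% of chromosome 4, close to the 24.8% of the other autosomal arms. Members called in a single sample made up 28.3% on chromosome 4 and 20.9% on the other arms. Regions called by FAIRE-seq and never by ATAC-seq were 98 of 374 (26.2%), against 11.1% elsewhere, and another 98 were called by ATAC-seq and never by FAIRE-seq, against 34.3% elsewhere. Calls found only in CantonS or only in Optix-GFP were also more common, with 31 members (8.29%, against 2.29% on the other arms) and 17 members (4.55%, against 1.74%). The other wild type libraries were not counted in this way. No chromosome 4 region was called in all 4 tumors and in no wild type, a pattern that 486 peaks (1.64%) of the other arms had.

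The chromosome as a whole took a more variable part of the reads than any other autosomal arm. Of the reads on autosomal arms, chromosome 4 peaks held 0.864% and 0.937% in the early and late ATAC-seq tumors, 0.815% and 0.880% in the Upd discs, and 0.947% in FRT82, 0.935% in DGRP-208 and 1.27% in Optix-GFP. By FAIRE-seq they held 1.23% and 1.32% in the early and late tumors, 1.21% in wild type FRT82 and 1.42% in CantonS. The 95% Wilson intervals were narrow, from 0.807% to 0.823% for the first Upd library and from 1.20% to 1.23% for wild type FRT82 by FAIRE-seq, and they cover counting error only. The FAIRE-seq libraries were thus high and all but 1 of the ATAC-seq libraries were low. Optix-GFP, at 1.26% to 1.28%, lay within the FAIRE-seq range. The highest share was 1.74 times the lowest on chromosome 4, and 1.03 to 1.06 times the lowest on 2L, 2R, 3L and 3R. These folds set 374 peaks against 6731 to 8433 on each other arm, and a small set of peaks can spread more. Stretches of like size on the other arms were not compared.

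**Figure D1:**
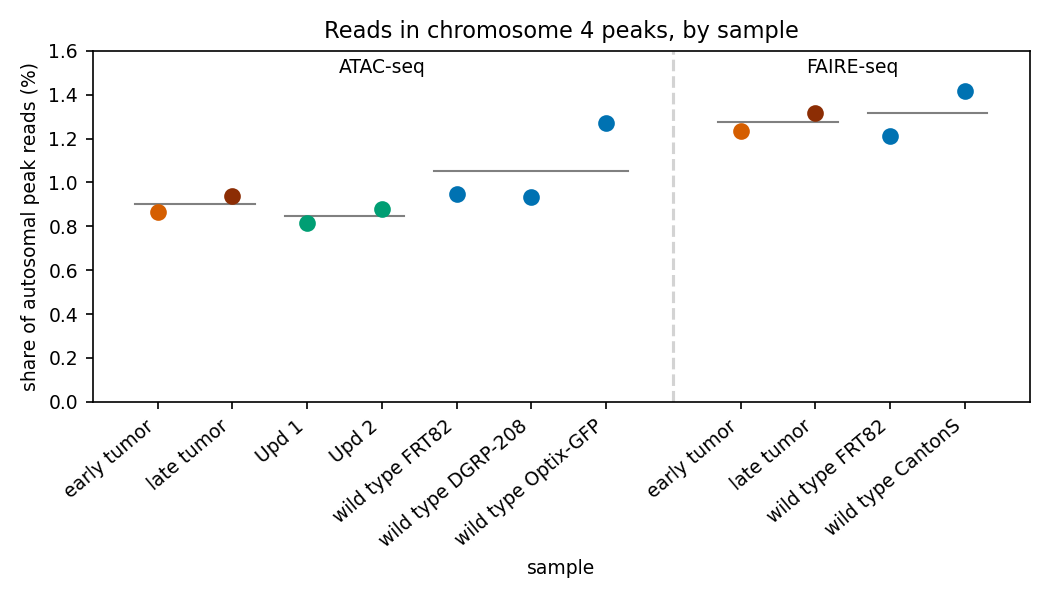
Share of the reads on autosomal arms that fell in chromosome 4 peaks (%), for each of the 11 samples, with 95% Wilson intervals that are smaller than the points and a grey line at each group's mean. The ATAC-seq samples lie between 0.815% and 0.947% with the exception of Optix-GFP at 1.27%, and the FAIRE-seq samples lie between 1.21% and 1.42%.

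**Figure D2:**
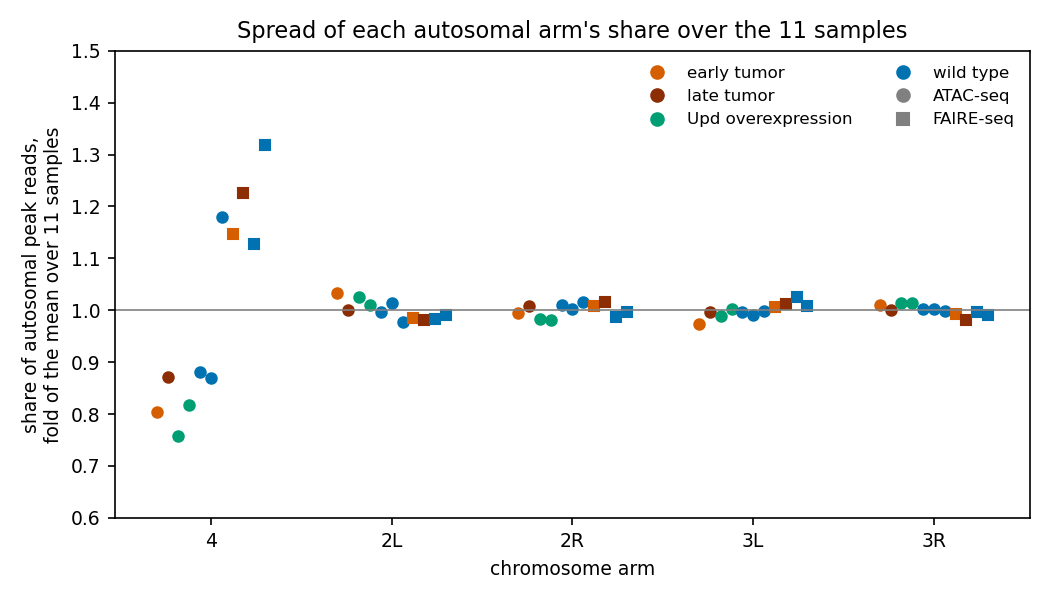
Share of autosomal reads in each autosomal arm's peaks, divided by that arm's mean over the 11 samples (circles ATAC-seq, squares FAIRE-seq). Chromosome 4 spreads from 0.758 to 1.32 of its mean, while the other arms stay between 0.974 and 1.03. Chromosome 4 has 374 peaks and each other arm 6731 to 8433.

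The share did not differ detectably between tumors and wild types. By ATAC-seq it averaged 0.900% ± 0.0514 in tumors (SD, n = 2) and 1.05% ± 0.189 in wild types (SD, n = 3). By FAIRE-seq it averaged 1.28% ± 0.0598 in tumors and 1.32% ± 0.146 in wild types (SD, n = 2 each). The difference of -0.0950 percentage points gave p = 0.35 in a two-sided exact permutation test within technique over 60 assignments. Without Optix-GFP it was -0.0404 points (exact permutation p = 0.611), where the remaining libraries allow no p under 0.05. Upd discs averaged 0.847% ± 0.0461 (SD, n = 2), which was 0.807 times the wild type ATAC-seq mean, with an exact permutation p of 0.3 where 0.1 was the smallest that the design allows. Without Optix-GFP the difference between Upd discs and wild types was -0.0937 points, against -0.203 points with it. Its exact permutation p of 0.333 is the smallest that 2 against 2 libraries allow, so this test could not detect a difference. ATAC-seq lay below FAIRE-seq by 0.320 percentage points over the 4 tumors and 5 wild types, with an exact permutation p of 0.05, which is not under 0.05 (smallest possible 0.0167). Without the 10 highest chromosome 4 peaks this difference was -0.380 points (exact permutation p = 0.0333).

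The Optix-GFP library carried more chromosome 4 signal along nearly the whole chromosome. Its share was 1.35 times the mean of FRT82 and DGRP-208 (0.941% ± 0.00875, SD, n = 2). The log2 ratio of Optix-GFP over that mean, with 1 CPM added, had a median of 0.29 over the 374 peaks and of -0.05 over the other autosomal arms, and 271 of the 374 chromosome 4 peaks were above 0. In windows of 100 kb the median ran from -0.14 (chr4:300001-400000) to 0.49 (chr4:400001-500000) and was negative in 2 of 13 windows. On X, the same ratio had a median of 0.26. DGRP-208 over FRT82 had a median of -0.05 on chromosome 4 and of -0.05 on the other autosomal arms. CantonS over FRT82 by FAIRE-seq had a median of 0.17 on chromosome 4 and of -0.03 on the other autosomal arms. These are single libraries, so none of the strain differences could be tested, and the main counts and medians below that rest on wild type ATAC-seq are also given without Optix-GFP.

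To ask how the tumor changed the open chromatin of chromosome 4, tumors were compared with wild types over both techniques, with technique as a term in the model. Fewer chromosome 4 peaks changed than elsewhere, and most of those that changed were closing. Of the 374 peaks, 34 (9.09%) passed an adjusted p of 0.01 (edgeR's quasi-likelihood test, Benjamini-Hochberg over all merged peaks), against 24.0% of all merged peaks and 24.6% of those on 2L, 2R, 3L and 3R. Of these, 10 (2.67%) opened and 24 (6.42%) closed, against 11.6% and 12.5% of all merged peaks. The median log2 fold change was -0.15 on chromosome 4 and -0.03 on the other autosomal arms, and its interquartile range was 0.67 on chromosome 4 and 1.04 on the other arms. Without Optix-GFP the medians were -0.06 on chromosome 4 and -0.04 on the other autosomal arms. The 4 large arms lay close together, between 23.8% and 26.4% called.

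The split into opening and closing depended on how chromosome 4 was scaled. TMM computed within each arm scales chromosome 4 to its own reads and was chosen after seeing the data. With it 13 peaks opened and 17 closed, with a median of -0.02 (8.02% called, against 24.9% on 2L, 2R, 3L and 3R). With DESeq2's size factors 12 opened and 18 closed (8.02% called, against 24.8%). Without Optix-GFP 9 opened and 18 closed, 7.22% of the members against 21.1% on 2L, 2R, 3L and 3R. The count rested on the ATAC-seq tumors: 15 peaks passed without the early one and 13 without the late one, with 15.1% and 14.3% called on the other autosomal arms in those comparisons.

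**Figure D3:**
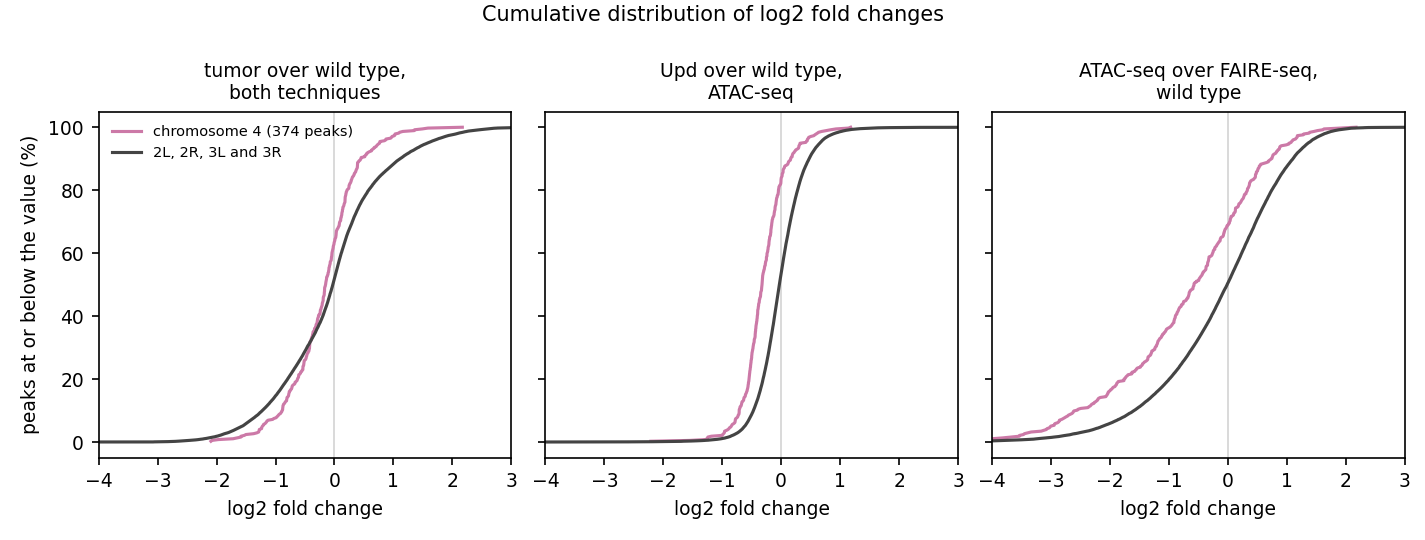
Cumulative share of peaks (%) against the log2 fold change of tumor over wild type, Upd over wild type and ATAC-seq over FAIRE-seq, for chromosome 4 (374 peaks) and the other autosomal arms, drawn from -4 to 3. The chromosome 4 curve is steeper in the tumor comparison (interquartile range 0.67, against 1.04), and it lies to the left of the other arms in the Upd comparison (medians -0.32 and -0.03) and in the comparison of techniques (medians -0.58 and -0.01).

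The lower share of calls was not confined to weak peaks. When all merged peaks were divided into 4 equal classes by mean CPM, the shares called on chromosome 4 were 1.65%, 10.2%, 18.2% and 10.3% from the lowest to the highest class. On 2L, 2R, 3L and 3R they were 13.2%, 26.9%, 31.1% and 27.0%. In the highest class, 78 chromosome 4 peaks above 31.3 CPM had an interquartile range of log2 fold change of 0.30, against 0.67 on the other arms. Without Optix-GFP the shares called on chromosome 4 were 0%, 8.16%, 16.9% and 7.69%, against 9.32%, 22.2%, 27.9% and 24.9% on the other arms.

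**Figure D4:**
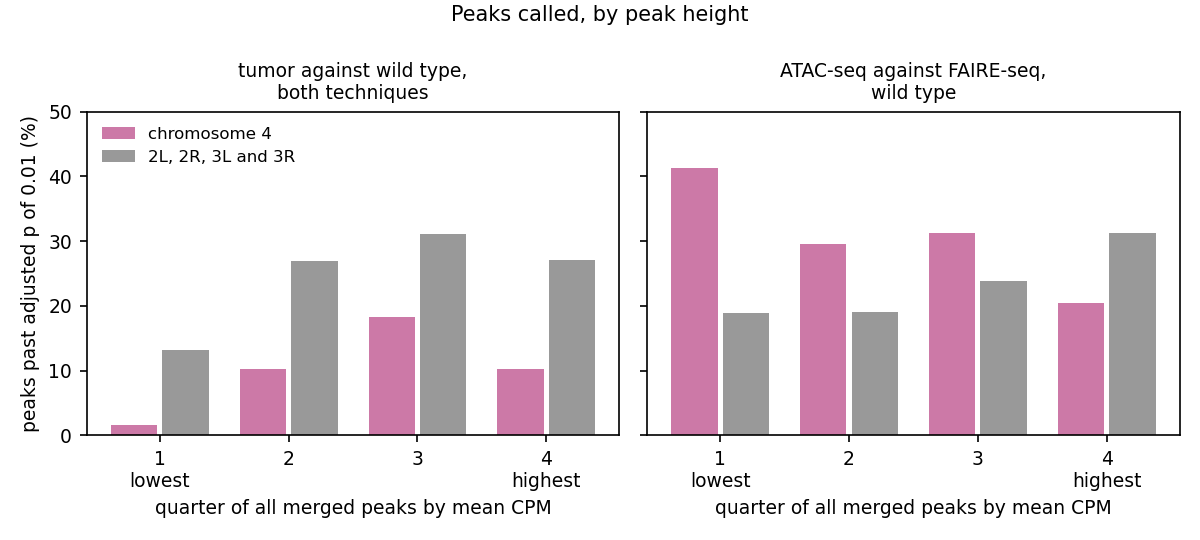
Share of peaks (%) past an adjusted p of 0.01 in 4 classes of mean CPM, for chromosome 4 and for the other autosomal arms. Chromosome 4 is below the other arms in every class for tumor against wild type, with 10.3% against 27.0% in the highest, and above them for ATAC-seq against FAIRE-seq except in the highest class, with 20.5% against 31.3%.

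The largest opening lay at opening region 1, with another called region 146 bp away. By gene order both lie in the interval that holds ey, whose regulatory sequence the tumors also carried in front of Flp. Reads from that added sequence and from the native locus cannot be told apart. Whether these regions lie within it was not tested. Opening region 1 (chr4:730466-730973, 508 bp) had 77.4 and 48.7 CPM in the early and late ATAC-seq tumors, against 6.85, 8.08 and 6.55 CPM in FRT82, DGRP-208 and Optix-GFP. By FAIRE-seq it had 52.2 and 43.9 CPM in the early and late tumors, against 31.9 and 16.5 CPM in FRT82 and CantonS. All tumors were above all wild types of their technique, and the Upd discs, at 11.2 and 10.9 CPM, also lay above the 3 ATAC-seq wild types, with a log2 fold change of 0.63 ± 0.28 and no call (SE; adjusted p = 0.696 by edgeR). The log2 fold change of tumor over wild type was 2.17 ± 0.36 (SE; adjusted p = 0.000366 by edgeR). It was a called peak in all 4 tumor samples and in 1 of the 5 wild types.

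Its neighbor, opening region 3 (chr4:731120-731414, 295 bp), had 47.5 and 34.3 CPM in the early and late ATAC-seq tumors, against 11.7, 10.6 and 16.2 CPM in FRT82, DGRP-208 and Optix-GFP. By FAIRE-seq both tumors had 25.0 CPM, against 12.0 and 13.1 CPM in FRT82 and CantonS. Again no tumor overlapped a wild type, with a log2 fold change of 1.36 ± 0.22 (SE; adjusted p = 0.000302 by edgeR). Unlike its partner it was already called as a peak in 4 of the 5 wild types. With the stages separated, both regions of the pair had opened in early tumors, with log2 fold changes of 2.42 ± 0.42 and 1.49 ± 0.26 (SE; adjusted p = 0.00277 and 0.00285 by edgeR).

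Opening region 2 (chr4:1009165-1009356, 192 bp) was the lowest in level of the 5. It had 9.68 and 11.9 CPM in the early and late ATAC-seq tumors, against 1.48, 3.71 and 3.11 CPM in the wild types, and 12.9 and 14.4 CPM in the FAIRE-seq tumors, against 4.35 and 8.87 CPM in the wild types. No wild type or Upd sample had a called peak there, and its log2 fold change was 1.49 ± 0.32 (SE; adjusted p = 0.00198 by edgeR). The call was lost without the late ATAC-seq tumor (adjusted p = 0.0115) and without a term for the technique (0.0265).

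Opening region 4 (chr4:405074-405516, 443 bp) had 44.7 and 55.3 CPM in the early and late ATAC-seq tumors, against 15.6, 13.8 and 19.3 CPM in the wild types. In FAIRE-seq it had 25.4 and 41.3 CPM in the tumors, against 15.2 and 17.0 CPM in the wild types, and the log2 fold change over both techniques was 1.35 ± 0.21 (SE; adjusted p = 0.000257 by edgeR). It was not particular to tumors, since 3 of 5 wild types and both Upd samples had a call there.

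Opening region 5 (chr4:536981-537343, 363 bp) had 21.9 and 24.2 CPM in the ATAC-seq tumors, against 7.66, 7.15 and 7.86 CPM in the wild types. Its FAIRE-seq values were 18.6 and 31.8 CPM in the tumors, against 15.6 and 16.5 CPM in the wild types, so that the groups were separated by less in FAIRE-seq. The log2 fold change was 1.16 ± 0.24 (SE; adjusted p = 0.00183 by edgeR), and the call was lost without the late ATAC-seq tumor (adjusted p = 0.0113) and without a term for the technique (0.0301).

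Among the remaining opening peaks, chr4:1005492-1005702 (log2 fold change 1.59 ± 0.42) and chr4:1006042-1006382 (0.73 ± 0.18) formed another neighboring pair, 339 bp apart. Over the 10 opening peaks the median level was 40.5 and 35.5 CPM in the early and late ATAC-seq tumors, 10.2 and 12.5 CPM in the Upd discs, and 9.67, 9.34 and 12.0 CPM in FRT82, DGRP-208 and Optix-GFP. The log2 fold change of Upd over wild type for these 10 peaks ran from -0.33 to 0.63 with no call.

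The closing regions were more numerous and reached similar sizes. Closing region 1 (chr4:1181081-1181769, 689 bp) had 10.8 and 9.99 CPM in the early and late ATAC-seq tumors, against 68.9, 104 and 58.9 CPM in FRT82, DGRP-208 and Optix-GFP. By FAIRE-seq it had 20.1 and 9.79 CPM in the early and late tumors, against 38.0 and 26.6 CPM in FRT82 and CantonS. All tumors were below all wild types, and the region fell by 2.10 on the log2 scale in tumors (SE 0.366; adjusted p = 0.000523 by edgeR). It was called as a peak in all 5 wild types and both Upd samples and in no tumor. The next peak, chr4:1181879-1182367, 109 bp away, fell by 1.24 on the log2 scale.

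Closing regions 2 and 3 formed a pair 1086 bp apart. Closing region 2 (chr4:850405-850634, 230 bp) had 3.23 and 3.83 CPM in the ATAC-seq tumors, against 28.1, 20.0 and 49.1 CPM in FRT82, DGRP-208 and Optix-GFP, and 11.1 and 8.16 CPM in the FAIRE-seq tumors, against 19.9 and 15.8 CPM in the wild types. It fell by 2.08 on the log2 scale (SE 0.437; adjusted p = 0.00183 by edgeR), a call that was lost without the early (adjusted p = 0.0152) or the late (0.0163) ATAC-seq tumor. Closing region 3 (chr4:849047-849318, 272 bp) is the region that the study paired with Sox102F, a gene for an HMG-box transcription factor of the SoxD group. It had 2.80 and 3.30 CPM in the ATAC-seq tumors, against 18.9, 15.4 and 31.1 CPM in the wild types, and 8.02 and 6.53 CPM in the FAIRE-seq tumors, against 15.6 and 14.2 CPM in the wild types. The level fell by 1.97 on the log2 scale (SE 0.369; adjusted p = 0.000838 by edgeR).

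Closing region 4 (chr4:451318-451634, 317 bp) had 4.73 and 4.89 CPM in the ATAC-seq tumors, against 22.7, 24.9 and 33.9 CPM in the wild types. The FAIRE-seq tumors had 13.7 and 9.63 CPM, against 22.5 and 19.4 CPM in the wild types, and the region fell by 1.72 on the log2 scale (SE 0.325; adjusted p = 0.000901 by edgeR). Upd discs, at 19.9 and 22.3 CPM, lay just below the lowest wild type. Closing region 5 (chr4:543219-543664, 446 bp) had 7.53 and 9.36 CPM in the ATAC-seq tumors, against 32.2, 27.9 and 57.8 CPM in the wild types, and 7.04 and 7.67 CPM in the FAIRE-seq tumors, against 10.9 and 16.1 CPM in the wild types. This region fell by 1.65 on the log2 scale (SE 0.320; adjusted p = 0.00106 by edgeR, and 0.0108 without a term for the technique).

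The study paired 2 further closing regions of chromosome 4 with genes. The region of CG9935 (chr4:659620-659881), listed in RefSeq under the name Ekar, a kainate-type glutamate receptor gene, had 1.94 and 3.19 CPM in the ATAC-seq tumors, against 8.20, 8.21 and 11.9 CPM in the wild types. By FAIRE-seq it had 11 and 6.53 CPM in the tumors, against 24.3 and 19.3 CPM in the wild types, and it fell by 1.58 on the log2 scale (SE 0.283; adjusted p = 0.000614 by edgeR, and 0.0817 without a term for the technique). The region of zfh2 (chr4:530492-530722) had 6.67 and 9.68 CPM in the ATAC-seq tumors, against 18.4, 19.5 and 34.4 CPM in the wild types. By FAIRE-seq it had 8.80 and 8.49 CPM in the tumors, against 18.1 and 16.5 CPM in the wild types, and it fell by 1.32 on the log2 scale (SE 0.263; adjusted p = 0.0013 by edgeR). The study's lists pair regions with genes that change in the same direction in tumors, with expression taken from public arrays of other samples. The regions of these pairs, and that of Sox102F, were chosen on the same samples, so they are not independent evidence of a direction.

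**Figure D5:**
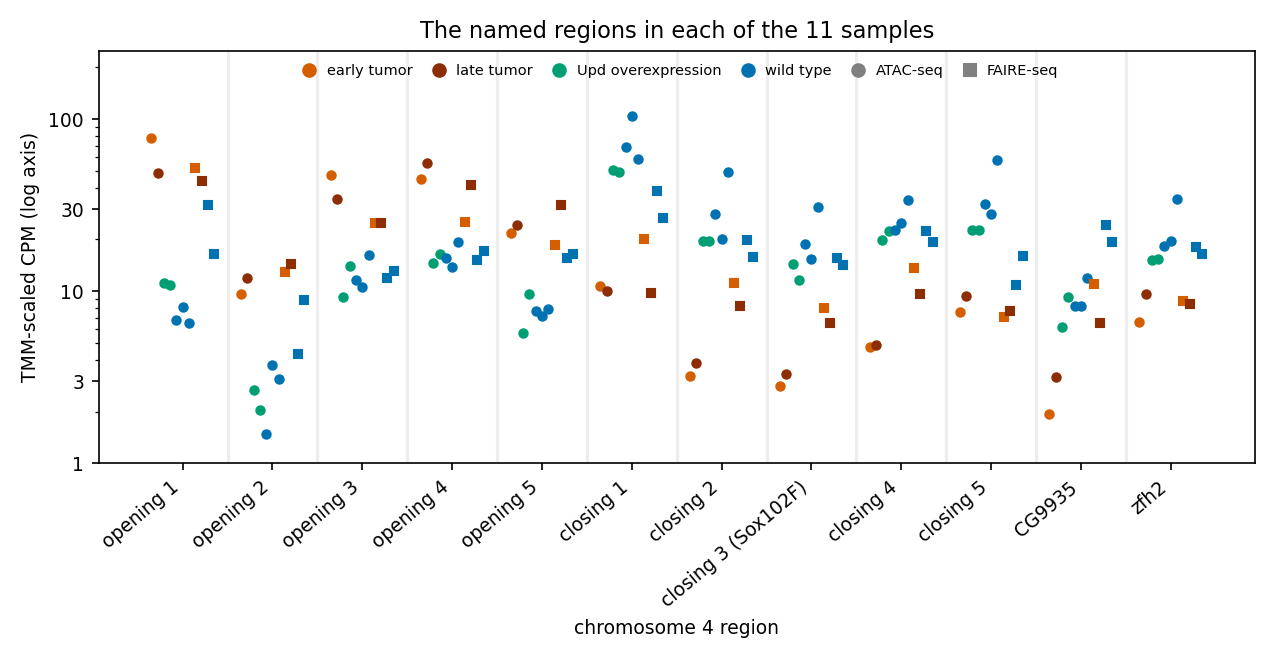
TMM-scaled CPM (log axis) of the 5 opening and 5 closing regions, numbered by the size of their log2 fold change, and of the regions paired with CG9935 and zfh2, in each sample (circles ATAC-seq, squares FAIRE-seq). Every tumor lies above the wild types of its technique in the opening regions and below them in the closing ones, which the choice of the numbered regions required, and the Upd samples lie nearer to the wild types than to the ATAC-seq tumors.

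Over the 24 closing peaks the median level was 5.16 and 6.96 CPM in the early and late ATAC-seq tumors, 15.7 and 15.9 CPM in the Upd discs, and 18.7, 19.7 and 32.7 CPM in FRT82, DGRP-208 and Optix-GFP. By FAIRE-seq it was 11.1 and 8.57 CPM in the early and late tumors, against 20.5 and 19.4 CPM in FRT82 and CantonS. That the tumors were lowest follows from the choice of these peaks, and among the wild types Optix-GFP was the highest. Without regard to the test, all tumors lay above all wild types of their technique in 24 chromosome 4 peaks (6.42%, against 17.0% of all merged peaks) and below them in 59 (15.8%, against 18.3% of all and 19.0% on 2L, 2R, 3L and 3R). Without Optix-GFP they lay above in 28 (7.49%, against 18.3% of all) and below in 62 (16.6%, against 19.7% of all).

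Most regions could not be placed in a gene, because no dm3 annotation was used, but the regions paired with zfh2, CG9935 and Sox102F divide the chromosome into 4 intervals. The RefSeq annotation of a later build, used for gene order only and on the assumption that dm3 has the same order, lists 80 protein-coding genes on chromosome 4. The interval from the first peak to zfh2, which holds ci, the Wnt effector gene pan and others, 32 protein-coding genes in all, had 145 peaks, of which 2 opened and 9 closed. The interval between zfh2 and CG9935, with onecut, Eph, Ephrin and the TGF-beta ligand gene mav among 9 genes, had 34 peaks, of which 2 opened and 3 closed. Between CG9935 and Sox102F lie ey, the TGF-beta ligand gene myo, the muscle gene bt among 8 genes, with 66 peaks, of which 3 opened and 2 closed. The pair of opening regions 1 and 3 is in this interval, as is the gene whose regulatory sequence drove Flp in the tumors. From Sox102F to the last peak lie toy, the Pax gene sv, the Polycomb group gene pho among 28 genes, with 126 peaks, of which 3 opened and 7 closed. The 3 dividing regions themselves closed. The median log2 fold change of tumor over wild type lay between -0.27 and -0.10 in the 4 intervals, and between -0.20 and -0.0009 without Optix-GFP.

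Taken separately, the techniques called different numbers of peaks. In ATAC-seq 36 of 374 peaks (9.63%) passed the threshold, against 26.3% of all merged peaks, with 11 opening and 25 closing (13.5% and 12.8% of all). With TMM within each arm it was 17 opening and 21 closing (10.2% called, against 27.2% on the other autosomal arms). Without Optix-GFP it was 15 and 21 (9.63%, against 27.2%). Without the early tumor 15 peaks (4.01%) passed, and without the late tumor 11 (2.94%), while the share on the other autosomal arms was 15.3% and 12.1% in those comparisons, against 27% with all libraries. In total, 27 peaks passed in both the ATAC-seq and the combined comparison. In FAIRE-seq no chromosome 4 peak passed (0 by edgeR and 0 by DESeq2), against 2.36% of all merged peaks, while 38 peaks had an unadjusted p under 0.05 (10.2%, against 24.2% of all). With FAIRE-seq libraries left out in turn, 3 peaks (0.802%, against 8.1% on the other autosomal arms) passed without the early tumor, 0 (against 0.195%) without the late tumor, and 2 (0.535%) without FRT82 (against 4.53%) or without CantonS (against 3.17%). The 34 peaks called over both techniques had the same sign in ATAC-seq and FAIRE-seq in 34 of 34 cases, as the combined call favors. The difference between the tumor effects of the techniques, tested as an interaction, passed for no chromosome 4 peak (edgeR; smallest adjusted p 0.026, 27 peaks, or 7.22%, at an unadjusted p under 0.05, against 17.3% of all merged peaks) and for 4 of all merged peaks.

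Few chromosome 4 peaks were called once the stages were separated. Early tumors against wild types gave 4 calls (1.07%, against 7.07% of all merged peaks), which were the opening pair, opening region 4 and the closing peak chr4:157469-157971 (log2 fold change -1.32 ± 0.30). DESeq2 called 19 (5.08%, against 15% on the other autosomal arms). Leaving out single libraries gave 0 calls without the early ATAC-seq tumor (0% on the other autosomal arms as well), 9 without the early FAIRE-seq tumor (2.41%, against 10%), 13 without CantonS (3.48%, against 10.3%) and 2 without any other (0.535%, against 2.8% to 6.44%). Late against early tumors gave no call (0 by edgeR and 0 by DESeq2), as for all merged peaks in edgeR (0.0%), and 4 chromosome 4 peaks (1.07%) had an unadjusted p under 0.05, all higher in late tumors, where 1.93% of all merged peaks were higher. With the wild types left out of the model 0 chromosome 4 peaks passed the threshold, against 0.849% on the other autosomal arms. In that model 23 peaks (18 higher and 5 lower in late tumors) had an unadjusted p under 0.05. The share of all merged peaks at that unadjusted p was not computed, so the 23 have no background beside them. The median log2 fold change of late over early tumors was 0.13 on chromosome 4 and -0.01 on the other autosomal arms. With TMM within each arm it was -0.0029 on chromosome 4, and without the early ATAC-seq tumor it was 0.10, against 0.04 on the other autosomal arms.

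Upd discs gave hardly any called peak on the genome as a whole and none on chromosome 4. Their stocks differ from those of all wild types, so an effect of Upd and one of stock cannot be told apart. None of the 374 peaks passed an adjusted p of 0.01 (0 by edgeR and 0 by DESeq2), against 0.0164% of all merged peaks. The values were nevertheless mostly lower in Upd discs. The median log2 fold change of Upd over wild type was -0.32 on chromosome 4, against -0.03 on the other autosomal arms, and 62 of 374 peaks (16.6%) were above 0. At an unadjusted p under 0.05 there were 50 peaks (13.4%, against 7.06% of all merged peaks), of which 1 was higher and 49 were lower in Upd discs (3.13% and 3.93% of all merged peaks). Both Upd libraries lay below all 3 wild types in 127 peaks (34.0%, against 12.9% of all merged peaks) and above them in 11 (2.94%, against 12.1%). On 2L, 2R, 3L and 3R the shares below and above were 14.7% and 10.6%.

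Without the Optix-GFP library the median was -0.21, against -0.04 on the other autosomal arms. In that comparison 26 peaks (1 higher and 25 lower) had an unadjusted p under 0.05. Both Upd libraries lay below the other 2 wild types in 149 peaks (39.8%, against 21.1% of all merged peaks and 23.8% on 2L, 2R, 3L and 3R). They lay above them in 27 (7.22%, against 20.2% and 15.5%). The count at an unadjusted p under 0.05 was 82 without DGRP-208. Without the first or the second Upd library the median was -0.28 or -0.40, against -0.04 and -0.05 on the other autosomal arms. With TMM within each arm the median was -0.03 and 10 peaks, 7 higher and 3 lower, had an unadjusted p under 0.05. Shares of all merged peaks at an unadjusted p under 0.05 were not computed for these alternatives, so the counts have no background beside them. Over the 78 peaks of the highest class of mean CPM the median log2 fold change was -0.49, against -0.12 on the other autosomal arms, and over the 121 peaks of the lowest class it was -0.21, against 0.08. Without Optix-GFP it was -0.31, against -0.11, in the highest class and -0.15, against 0.06, in the lowest, so that the median was lower in the highest class on chromosome 4 and on the other arms alike. The highest peak in the wild type mean, chr4:527469-529459, had 326 and 405 CPM in Upd discs, against 481, 412 and 724 CPM in FRT82, DGRP-208 and Optix-GFP, and no call (adjusted p = 0.692 by edgeR).

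The techniques themselves differed on chromosome 4, mostly toward lower values in ATAC-seq. In wild type discs 119 of 374 peaks (31.8%) passed the threshold between ATAC-seq and FAIRE-seq, against 23.1% of all merged peaks. Of these, 14 were higher and 105 lower in ATAC-seq (3.74% and 28.1%, against 9.94% and 13.2% of all merged peaks). A region is a member if any sample of either technique called it, so members called by FAIRE-seq alone were favored to be lower in ATAC-seq, and 76 of the 105 were of this kind. Over the 178 members that both techniques called, a division made after seeing the data, 41 passed (23.0%, against 24.2% of such peaks on the other autosomal arms), 12 of them higher and 29 lower in ATAC-seq (6.74% and 16.3%, against 13.5% and 10.7%), with a median log2 ratio of -0.25 for all 178. Over all members the median log2 ratio of ATAC-seq over FAIRE-seq was -0.58 on chromosome 4 and -0.01 on the other autosomal arms. Scaled by total counts the ratio was -0.98 on chromosome 4 and -0.42 on the other arms, a shift common to all arms. That scaling gave 4 peaks higher and 154 lower (42.2% called, against 27% on the other autosomal arms). With TMM within each arm, 42 peaks were higher and 71 lower (30.2%, against 24.1%) and the median was -0.10. Without Optix-GFP 11 were higher and 112 lower (32.9%, against 21.9%). The count depended on the 2 FAIRE-seq wild types, with 71 calls without FRT82 (19.0%, against 9.74% on the other autosomal arms) and 15 without CantonS (4.01%, against 2.59%), of which 14 were lower in ATAC-seq.

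The tumor libraries were not used in this comparison, although their calls also admitted members. Both ATAC-seq tumors lay below both FAIRE-seq tumors in 241 chromosome 4 peaks (64.4%, against 33.2% of all merged peaks and 31.1% on 2L, 2R, 3L and 3R) and above them in 58 (15.5%, against 32.6% and 34.6%). Of the 105 peaks lower in ATAC-seq in the wild types, 101 (96.2%) were so in the tumors, against 85.1% of the 3950 such peaks on the other autosomal arms. However, 76 of the 105 had no call in any ATAC-seq sample, tumors included, so they were favored to be lower in the ATAC-seq tumors too. Members called by FAIRE-seq alone also count among the 241, and neither count was made without them. The 105 peaks were short and weak, with a median length of 186 bp and a median level of 6.05 CPM. The 14 peaks higher in ATAC-seq had a median length of 650 bp and a median level of 74.9 CPM, and 11 of them were called in all 7 ATAC-seq samples. From the lowest to the highest class of mean CPM, 41.3%, 29.6%, 31.2% and 20.5% of the chromosome 4 peaks passed, against 18.9%, 19.1%, 23.8% and 31.3% on the other arms. Those lower in ATAC-seq numbered 50 of 121, 28 of 98, 23 of 77 and 4 of 78.

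Peaks lower in ATAC-seq were found all along the chromosome but not evenly. By window of 100 kb they made up 18 of 30 peaks (60.0%) in the window chr4:900001-1000000, 12 of 24 in chr4:1200001-1300000 and 9 of 19 in chr4:100001-200000, and 4 of 34 in chr4:1000001-1100000. Members called by FAIRE-seq alone were not counted apart by window, and windows on the other arms were not counted. The peak with the lowest ratio, chr4:350742-350847, had 1, 3 and 0 reads in the ATAC-seq wild types FRT82, DGRP-208 and Optix-GFP, against 13 and 48 reads in the FAIRE-seq wild types FRT82 and CantonS. Its log2 ratio was -4.81 ± 0.67 (SE; adjusted p = 0.000113 by edgeR). The next, chr4:972053-972170 (-4.17 ± 0.56) and chr4:205161-205270 (-4.12 ± 0.57), were likewise at 1 to 7 reads in ATAC-seq and 16 to 60 reads in FAIRE-seq, and each of the 3 was a called peak in a single sample, a FAIRE-seq wild type, so that their membership rested on the technique in which they were high.

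The peak with the highest ratio, chr4:887539-887873, overlapped a CTCF peak and had 105, 87.9 and 164 CPM in the ATAC-seq wild types, against 20.7 and 31.4 CPM in the FAIRE-seq wild types. Its log2 ratio was 2.17 ± 0.31 (SE; adjusted p = 0.000136 by edgeR), and in tumors it had 88.4 and 111 CPM in ATAC-seq, against 28.8 and 35.2 CPM in FAIRE-seq. It was followed by chr4:724412-725509, with 277, 173 and 356 CPM in ATAC-seq and 67.4 and 75.2 CPM in FAIRE-seq, and by chr4:548119-549211, with 342, 274 and 554 CPM in ATAC-seq and 140 and 113 CPM in FAIRE-seq.

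The tallest regions named here were not among the tumor calls, while 8 of the 78 peaks of the highest class were. The highest peak by the wild type mean of each technique was chr4:527469-529459, of 1991 bp, with 644 and 664 CPM in the ATAC-seq tumors, against 481, 412 and 724 CPM in the wild types, and 243 and 251 CPM in the FAIRE-seq tumors, against 232 and 246 CPM in the wild types. Its log2 fold change of tumor over wild type was 0.15 ± 0.16 (SE; adjusted p = 0.491 by edgeR). Next in FAIRE-seq came chr4:577758-579462, which overlapped a CTCF peak, with 260 CPM in CantonS, more than the first peak had in that library, and chr4:80597-81497, with 191 CPM in CantonS. Their log2 fold changes of tumor over wild type were 0.30 ± 0.14 and 0.20 ± 0.14 (SE; adjusted p = 0.111 and 0.277 by edgeR). The 10 highest chromosome 4 peaks held 24.3% to 30.7% of the reads of the chromosome in ATAC-seq and 16.1% to 17.8% in FAIRE-seq.

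CTCF, an insulator protein, was found on chromosome 4 about as often as elsewhere. There were 32 CTCF peaks, or 26.2 per Mb, against 29.4 per Mb on the other autosomal arms, and 27 of them overlapped an open region. Conversely, 32 of the 374 open regions overlapped a CTCF peak (8.56%, against 7.97% on the other autosomal arms). The regions with CTCF were taller, with a median of 27.7 CPM, against 8.38 CPM without CTCF, as on the other arms (29.9 and 12.2 CPM). None of the 10 opening and 2 of the 24 closing regions overlapped a CTCF peak. On the other autosomal arms 219 of the 7311 peaks called in the same comparison did.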

How the data were processed

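Eye-antennal discs were profiled by ATAC-seq and FAIRE-seq in 11 samples. The deposited counts are raw reads per merged peak. The authors removed adapters, mapped reads to dm3 with bowtie2, discarded poorly mapped and Wolbachia reads, reduced ATAC-seq reads to short windows around the cut site, called peaks in each sample with MACS2 at a q-value of 0.01, merged them over all samples and counted reads with htseq-count. FAIRE-seq reads were not reduced in this way, so peak counts of the techniques differ in construction. The deposited peak lists give positions only; CASAVA 1.8.2 is named in the submitters' processing notes.

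The 374 chromosome 4 rows were read from fits on all 36506 peaks with edgeR 4.0.16 in R 4.3.3 (TMM scaling, robust quasi-likelihood F-test, Benjamini-Hochberg adjustment over all peaks, threshold 0.01). The standard error was taken as the absolute log2 fold change over the root of F. Peaks without reads in the samples of a fit were dropped. Shares of reads were compared by exact permutation over samples. Calls were matched to merged peaks by an overlap of at least 1 bp. Depth is given with the results; fits were checked on simulated counts.

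The regions named singly were 5 opening and 5 closing peaks, those of largest change past the threshold, with a mean count of at least 10 and no overlap of tumors and wild types in either technique; the 3 highest wild type peaks of each technique; the 3 highest and 3 lowest ratios of the techniques; and those the study paired with a gene. No Upd region qualified. Members, lists and tests were chosen with earlier results of these data known. Peaks at single genes and motif counts, which need a dm3 annotation and genome, were not analysed here. The labels give 10 discs for the late ATAC-seq tumor, while the study's methods describe fewer, whole tumors for it. Alternatives were DESeq2 1.42.0, other scalings, a filter on low counts, other model terms and leaving out each library.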

Additional observations from a re-analysis of the deposited data

How the results depend on the processing

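No paired analysis was possible because, in the comparisons of tumors or Upd discs with wild types, only the Upd samples carry replicate numbers in their labels. ATAC-seq and FAIRE-seq could be matched in FRT82, early and late tumors, a choice made after seeing the data: 132 chromosome 4 peaks (17 higher and 115 lower in ATAC-seq) were called with genotype and stage as replicate block and 41 (6 higher and 35 lower) without the block, which was 35.3% of the members and 21.1% of the other autosomal arms with it and 11% and 4.58% without. The count of chromosome 4 peaks called between tumors and wild types was 34 (24.6% called on the other autosomal arms), and 10 (9.67%) without a term for the technique. Leaving out 1 library gave 13 (14.3% on the other autosomal arms) to 44 (28.3%) for both techniques. In ATAC-seq alone, leaving out 1 wild type gave 34 (23.6%) to 39 (24.5%). Without the early or the late tumor the ATAC-seq median log2 fold change on chromosome 4 was -0.16 or -0.32. In FAIRE-seq alone, leaving out 1 library gave medians from -0.12 to 0.08. For early tumors against wild types the count of 4 was 19 with DESeq2 and 2 when the late tumors were left out of the fit, and 0 to 13 with single libraries left out. For ATAC-seq against FAIRE-seq the count of 119 was 15 to 123 with single libraries left out. The difference in the share of reads between the techniques passed 0.05 without the 10 highest peaks (-0.380 points, exact permutation p = 0.0333) and without wild type FRT82 by FAIRE-seq (-0.371 points, exact permutation p = 0.0417), and ran from -0.375 to -0.269 points with single libraries left out. The cause of these changes was not tested, except that fewer samples leave fewer degrees of freedom.

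Scaling by total counts moved the median log2 fold change of all merged peaks by -0.40 between the techniques, by 0.11 for Upd and by -0.11 for tumors in FAIRE-seq. TMM within each arm aside, the median of chromosome 4 relative to 2L, 2R, 3L and 3R stayed negative for ATAC-seq against FAIRE-seq (-0.82 to -0.47) and for Upd (-0.36 to -0.17). With TMM within each arm, which removes most of a shift common to an arm by construction, it was -0.09 and -0.02. For tumors against wild types over both techniques it ran from -0.18 to 0.02, the upper end with TMM within each arm. Of the 12 regions named for their change in tumors, 7 kept their call under all 16 alternatives, 5 lost it under 1 or 2 and none reversed. The shallowest library, wild type FRT82 by FAIRE-seq, had a median of 33 reads per chromosome 4 peak.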
